A study of Homo sapiens with 24 samples.

Results

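The libraries described here are the 4 from cells expressing wild-type glucocorticoid receptor (wt GR) that were taken after 2 h of dexamethasone or in ethanol, 2 of each, out of 24 libraries in the study. They were chosen by label alone (wt at 2 h and wt at 0 h). U2OS is a human osteosarcoma line with little GR of its own, and the cells stably expressed GR fused to HaloTag, a protein tag for dye labelling. The construct had a CMV promoter, was integrated with the PiggyBac transposon, and each line was 1 sorted pool of cells. Dexamethasone, a glucocorticoid drug, was given to the treated wt cells at 100 nM for 2 h, and the untreated cells (0 h) had 0.01% ethanol, both in medium with stripped serum. All of them had 200 µM 4-thiouridine for the last 1 h, so that RNA made in that hour could be pulled down and sequenced (4sU-seq). The other lines carried a GR mutant that binds RNA poorly and DNA somewhat less well (SoF, K492A) or a control mutant made to match its weaker DNA binding (Ctrl, R470A), and wt cells were also sampled at 1 h and 3 h. How long the ethanol dishes were kept after their medium was replaced is not stated, so dexamethasone and time in fresh medium cannot be told apart. Nothing states that the 2 libraries of a group came from separate cultures, so p-values measure the spread between these libraries. According to the methods, labelled RNA was biotinylated and pulled down by replicate pairs. If such a pair is the 2 libraries of a group, pulldown and treatment cannot be told apart.

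GR is a nuclear receptor that moves into the nucleus when it binds a glucocorticoid and raises transcription from enhancers and promoters that hold its response element, an inverted repeat of short half-sites. It lowers the transcription of other genes, among them inflammatory genes driven by NF-kB and AP-1. The question here is which genes gain and which lose newly made RNA by 2 h.

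Total exon counts were 15820806 and 13060082 in the wt libraries at 0 h and 14951277 and 12639036 at 2 h. Levels are CPM, counts scaled to a common library size with TMM factors. The 2 libraries of a group differed more than counting error allows (chi-square per degree of freedom of at least 10.5 in both groups). The 14 osteosarcoma and mesenchymal markers summed to between 2799 and 3764 CPM in these libraries, with COL1A2 and TWIST1 below 1 CPM in each, and the 17 markers of other cell types to between 18.7 and 27.1 CPM, 5 or 6 of them at 0 counts. In bulk RNA, fewer cells of a kind and less RNA per cell cannot be told apart. NR3C1, the gene of GR, is counted from the introduced and the endogenous copy together. Its level was 552 and 824 CPM at 0 h and 469 and 715 CPM at 2 h, which overlap, and it did not pass the test (log2 fold change of -0.22, SE 0.21, adjusted p = 0.623, by the quasi-likelihood test of edgeR).

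By 2 h, newly made RNA had risen for 15 of 27 tested classical glucocorticoid targets, such as the sodium channel subunit SCNN1A, and fallen for 10 of 20 tested immediate-early transcription factors, such as EGR1 and EGR2. Of 23651 genes tested, 1089 (4.60%) passed edgeR's quasi-likelihood test at an adjusted p of 0.05, 801 rising (3.39%) and 288 falling (1.22%), and 4397 had an unadjusted p under 0.05. Rising genes made up 73.6% of the calls, or 61.0% (581 of 953) when libraries were scaled by their totals alone, which lowers the median log2 change of all tested genes from -0.01 to -0.10. The rising genes had a median log2 fold change of 0.95 (quartiles 0.74 and 1.32), and 88 of them rose at least 4-fold. Among the falling genes the median was -1.06 (quartiles -1.57 and -0.80), and 45 fell at least 4-fold. In all 1089 the 2 h libraries lay wholly on one side of the 0 h libraries. Over all tested genes this held upward in 24.7% and downward in 23.8%. The counts rested on both second libraries: 177 genes were called without replicate 2 at 0 h (136 rising, 41 falling) and 146 without replicate 2 at 2 h (124 rising, 22 falling).

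**Figure D1:**
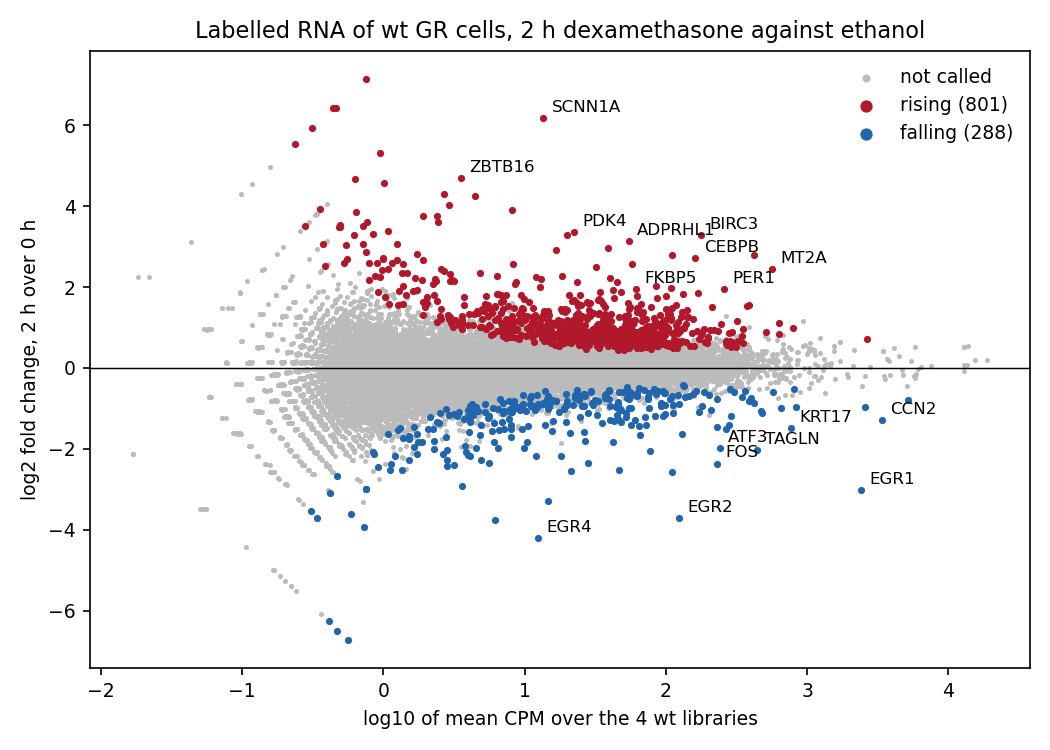
Log2 fold change at 2 h over 0 h (vertical axis) against the log10 of the mean CPM of the 4 wt libraries (horizontal axis), 1 point per tested gene, with 801 rising genes in red and 288 falling genes in blue. The 3 tested genes at 0 in all 4 libraries are not drawn. EGR1 lies far below 0 at a high level and SCNN1A far above 0 at a low one.

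The library pairs were unequal. Of the 288 falling genes, 249 (86.5%) were higher in library 2 than in library 1 at 0 h and 239 (83.0%) were not higher in library 2 at 2 h, against 48.5% and 50.9% of all tested genes. The rising genes were the mirror of this, with 584 of 801 (72.9%) higher in library 1 at 0 h and 676 (84.4%) higher in library 2 at 2 h. The part of this difference in the calls was not tested beyond leaving each library out. Below, a gene whose call held under all 11 alternatives run (other scalings and tools, other sets of libraries, a replicate block and each wt library left out) is said to keep its call.

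Of the 27 tested members of a list of classical glucocorticoid targets, 15 rose (55.6%, against 3.39% of all tested genes), and the other 12 did not pass. Their median log2 fold change was 1.38, against -0.01 for all tested genes. The list was drawn up from genes known to respond to glucocorticoids in other cells, but with earlier results of these data known. Its count is therefore not independent evidence.

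SCNN1A (chr12:6346843-6377730, minus strand), the alpha subunit of the epithelial sodium channel, had 0.472 and 0.231 CPM at 0 h and 32.04 and 21.4 CPM at 2 h. These are 10 counts at 0 h against 683 at 2 h, a ratio of 75.6 (95% exact counting interval 40.9 to 158). Its fitted log2 fold change was 6.18 (SE 0.45, adjusted p = 2.45e-08, edgeR). SCNN1A was nearly silent in both ethanol libraries and plainly expressed in both treated ones. SCNN1B and SCNN1G, the genes of the channel's other subunits, stayed at 0 to 2 counts in each of the 4 libraries and were too low to test.

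ZBTB16, which encodes the zinc finger repressor PLZF, behaved alike, with 0.135 and 0.385 CPM at 0 h and 6.32 and 7.28 at 2 h. Its 7 counts at 0 h and 170 at 2 h give a ratio of 26.9 (95% exact counting interval 12.8 to 67.9). Its fitted log2 value, 4.69, was 4.07 and 5.55 without the first and the second untreated library. FKBP5 (chr6:35573585-35728583, minus strand), the co-chaperone that lowers the hormone affinity of GR, had 22.8 and 28.0 CPM at 0 h and 75.6 and 121 at 2 h. Both treated libraries were well above both untreated ones, and FKBP5 rose 3.88-fold (log2 fold change 1.96, SE 0.21, adjusted p = 8.64e-06, edgeR).

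PER1 (chr17:8140472-8156506, minus strand), a core repressor of the circadian clock, went from 115 and 99.4 CPM to 425 and 401 CPM, a log2 fold change of 1.95 (SE 0.23). It was the member that passed among 18 tested clock genes (5.56%, against 3.39% of all tested genes). PER2 had 80.5 and 78.4 CPM at 0 h and 91.9 and 77.1 at 2 h, and CRY1 35.5 and 29.8 against 37.0 and 27.8. In both of these genes the 2 h libraries overlapped those at 0 h.

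TSC22D3, which encodes the anti-inflammatory protein GILZ, rose from 16.7 and 17.1 CPM to 53.6 and 93.6 CPM (log2 2.12, SE 0.34). The kinase SGK1, which holds sodium channels at the membrane, rose from 218 and 295 to 411 and 473 CPM (log2 0.79, SE 0.15). SCNN1A and SGK1 were among the 3 risers of 12 tested sodium transport genes. The 9 classical targets that kept their calls were FKBP5, TSC22D3, PER1, KLF9, ZBTB16, MT2A, PDK4, SCNN1A and BIRC3.

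DUSP1, the phosphatase that switches off MAP kinases and is often named as a GR target, did not pass. It had 986 and 1158 CPM at 0 h and 1255 and 1509.6 at 2 h, a log2 fold change of 0.37 (SE 0.21, adjusted p = 0.362, edgeR). The treated libraries were above the untreated ones, but by little more than these differed. The target genes GLUL (glutamine synthetase, log2 0.65, SE 0.26) and KLF15 (log2 1.38, SE 0.43) were likewise above 0 without passing.

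**Figure D2:**
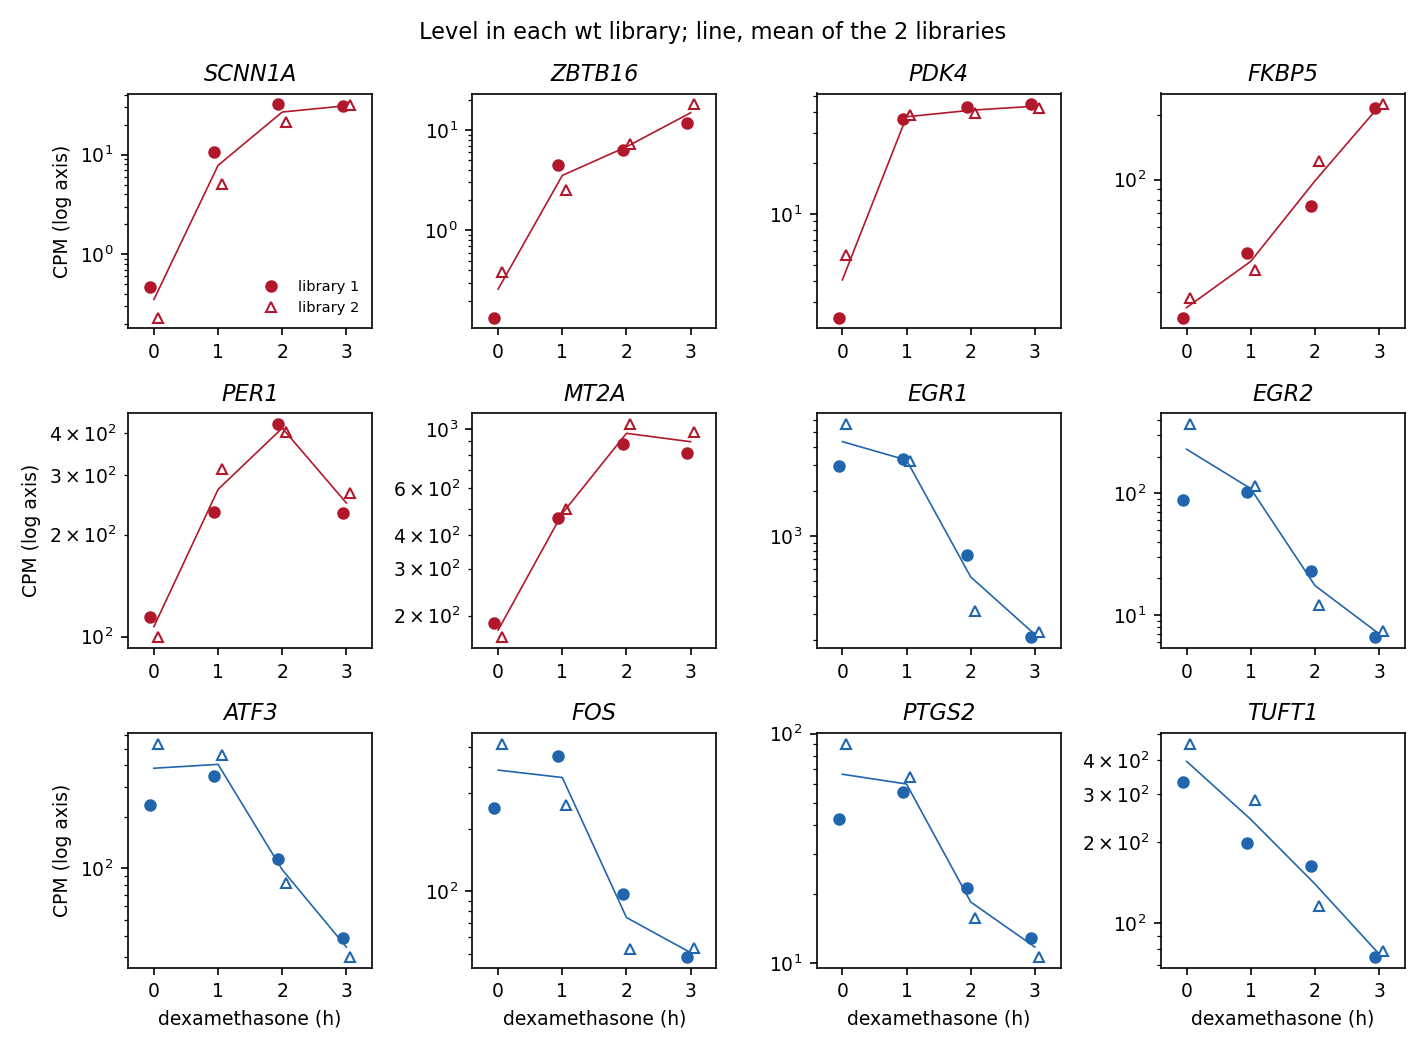
CPM on a log axis in each wt library at 0, 1, 2 and 3 h of dexamethasone, with library 1 as filled circles, library 2 as open triangles and the mean of both as a line. The 6 rising genes in red are above their 0 h libraries at 2 h, and the 6 falling genes in blue are below theirs.

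The promoters of these genes were read for the response element, since it is the letters GR binds. RefSeq gives a window from 250 bases before to 50 bases after the start (GRCh38.p14) for 30 of the 41 called genes that were in the classical list or named by their p-value, and for 574 of the 801 rising genes. The full element (AGAACA, any 3 bases, TGTTCT, which reads the same on both strands) was in none of the 13004 windows of tested genes and in 1 of all 27305 windows. A relaxed form (G, any base, ACA, any 3 bases, TGT, any base, C) was in none of the 30 windows. It was in 6 windows of rising genes (1.05%), against 0.238% of those of tested genes and 0.388% of all windows, and in 1 window of a falling gene (0.680%). Among the 6, OR7A5 and OR7C1 held it at the same place, ending 156 bases before the start, so they may not count as separate. KCNA5, SLAMF8, OR7A5 and OR7C1 were below 1 CPM in both 0 h libraries. Of the 6, 2 are described below, KCNA5 and TXNIP, and 80 bases of each are printed, 5′ to 3′ on the strand of the gene, with the relaxed element in capitals. The KCNA5 stretch is chr12:5043639-5043718 (plus strand) and the TXNIP stretch chr1:145996710-145996789 (minus strand).
KCNA5: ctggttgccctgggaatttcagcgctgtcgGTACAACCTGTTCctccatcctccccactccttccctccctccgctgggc
TXNIP: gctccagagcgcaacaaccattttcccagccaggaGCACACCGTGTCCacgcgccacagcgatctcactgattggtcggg
A match is a description of the letters and not a binding site. The paper states that GR prefers enhancers away from gene starts, and these windows do not cover them. A window without the element therefore does not show that a gene lacks one.

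Among 31 tested regulators of glucose and lipid metabolism, 6 rose (19.4%) and the rest did not pass. PDK4, the kinase that keeps pyruvate out of the citric acid cycle, had 2.43 and 5.69 CPM at 0 h and 42.7 and 39.2 at 2 h. Both treated libraries were far above both untreated ones (log2 3.35, SE 0.31, adjusted p = 8.81e-07, edgeR). IP6K3, an inositol hexakisphosphate kinase, rose from 0.809 and 1.23 to 14.3 and 16.2 CPM (log2 3.90, SE 0.29).

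TXNIP, which restrains glucose uptake, stood at 8.49 and 20.4 CPM at 0 h and at 34.5 and 53.1 at 2 h (log2 1.61, SE 0.29). FOXO1 (log2 1.63), a transcription factor of fasting, the ethanolamine kinase ETNK2 (log2 1.43) and hexokinase HK2 (log2 1.48) completed the group. FOXO1 and HK2 had the wider spread: FOXO1 was at 24.4 and 58.6 CPM in the treated libraries and HK2 at 57.2 and 127. Without replicate 2 at 2 h the log2 values were 0.87 for FOXO1 and 0.80 for HK2, and both calls were lost. Without replicate 2 at 0 h TXNIP was at 2.36 and PDK4 at 4.07. PDK4, ETNK2 and IP6K3 kept their calls.

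Of 18 tested regulators of the growth kinase mTORC1, 4 rose (22.2%) and 1 fell (5.56%), against 3.39% and 1.22% of all tested genes. CASTOR1, an arginine sensor that inhibits mTORC1, rose from 11.1 and 8.16 to 56.2 and 52.3 CPM (log2 2.49, SE 0.30) and kept its call. DDIT4, another mTORC1 inhibitor, was at 65.3 and 82.3 CPM before and 165 and 364 after treatment (log2 1.84, SE 0.39), so that the treated libraries differed from each other more than the untreated. Without replicate 2 at 2 h its log2 value was 1.16 and the call was lost. RRAGD and RRAGC, which recruit mTORC1 to lysosomes, rose by log2 fold changes of 0.75 and 0.70. The pseudogene CASTOR3P fell by 1.05 on the log2 scale. The calls of RRAGD, RRAGC and CASTOR3P were lost in 7, 8 and 5 of the 11 alternatives.

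Metallothioneins, small metal-binding proteins, rose in 3 of 5 tested genes (60.0%, against 3.39% of all tested genes). MT2A went from 187 and 166 to 881 and 1044 CPM (log2 2.45, SE 0.32), and MT1E from 120.3 and 91.8 to 657 and 814 CPM (log2 2.79, SE 0.33). MT1X had a log2 fold change of 1.73 (SE 0.32). The genes of this cluster on chromosome 16 are near-identical copies, so reads may be split among them and single members are uncertain.

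Of 19 tested transcription factors of the KLF and C/EBP families, 5 rose (26.3%). CEBPB, which drives acute-phase and fat cell genes, rose from 47.9 and 37.9 CPM to 216 and 346 CPM (log2 2.71, SE 0.37, adjusted p = 0.000132, edgeR). KLF9, a repressor induced by steroid and thyroid hormones, was at 31.8 and 36.0 CPM at 0 h and 120.3 and 155 at 2 h (log2 2.02, SE 0.26). In both genes the lower treated library was more than 3-fold above the higher untreated one. CEBPD, KLF16 and KLF13 rose by log2 fold changes of 1.45, 1.03 and 0.73, but those calls were lost when some libraries were left out.

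Beyond these lists, the rising genes with the smallest p-values were a mixed group. ADPRHL1 (chr13:113399611-113453488), of the ADP-ribosylhydrolase family, had 10.3 and 12.2 CPM at 0 h and 86.6 and 110.4 at 2 h (log2 3.13, SE 0.22, adjusted p = 2.45e-08, edgeR). OLAH, a thioesterase that frees fatty acids from the synthase, went from 7 counts over both 0 h libraries to 129 over both 2 h libraries, a ratio of 20.4 (95% exact counting interval 9.62 to 51.8). The zinc finger gene ZNF189 rose from 24.1 and 32.2 to 157 and 229.9 CPM (log2 2.78, SE 0.30).

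PHACTR3, a regulator of protein phosphatase 1 and actin, METTL7B, a methyltransferase, and CDK5R1, the activator of the kinase CDK5, had log2 fold changes of 3.30 (SE 0.35), 2.92 (SE 0.32) and 1.73 (SE 0.20). GGT5, a gamma-glutamyltransferase, had 10 counts at 0 h and 112 at 2 h (ratio 12.4, 95% exact counting interval 6.50 to 26.6). Each of these genes kept its call.

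The largest rises were in genes near 0 without hormone. EDN3 (endothelin 3) had 0 counts in both 0 h libraries and 1.18 and 1.82 CPM at 2 h. Against a floor of 3 counts per library it was at least 6.92-fold higher, and its call was lost without replicate 2 at 0 h. KCNA5, a voltage-gated potassium channel, had 1 count at 0 h and 45 at 2 h, a ratio of 49.8 with a wide counting interval (95% exact, 8.50 to 2011), and its call was lost without replicate 2 at either time.

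Inflammatory genes moved both ways. Of 19 tested cytokines, chemokines and inflammatory enzymes, 2 rose (10.5%), 2 fell (10.5%) and 15 did not pass. Over all tested genes 3.39% rose and 1.22% fell. Outside this list, the chemokine genes CCL3 and CCL3L3 were also called falling in wt (log2 -3.29 and -1.70). Their log2 values were -3.51 and -1.89 in SoF and -3.57 and -1.77 in Ctrl. Both genes are named outside the rules of choice, and whether reads are split between them was not tested. PTGS2, the inducible cyclooxygenase, fell from 42.6 and 90.4 CPM to 21.2 and 15.7 CPM (log2 -1.84, SE 0.25, adjusted p = 0.000127, edgeR), and it kept its call. The cytokine TNFSF15 fell by 1.42 on the log2 scale (SE 0.27). The log2 value of PTGS2 was -1.20 without replicate 2 at 0 h. That of TNFSF15 was -2.15 with the first treated library left out. Leaving out the second treated library instead gave -0.96, and the call of TNFSF15 was lost.

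The chemokine CCL20 rose from 14.8 and 16.8 to 28.5 and 74.1 CPM (log2 1.70, SE 0.35), and the macrophage growth factor CSF1 had a log2 fold change of 1.00 (SE 0.28). CCL20 was at 0.86 without replicate 2 at 2 h, and its call was lost. CXCL8, the neutrophil chemokine, was at 143 and 168 CPM at 0 h and 231 and 521 at 2 h without passing (log2 1.27, SE 0.48, adjusted p = 0.145, edgeR). IL6 was low and overlapped between the groups, at 4.85 and 3.54 CPM against 2.87 and 4.77.

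NF-kB subunits and feedback genes rose in 6 of 21 tested (28.6%) and fell in 1 (4.76%), against 3.39% and 1.22% of all tested genes. BIRC3, an inhibitor of apoptosis, rose most, from 35.1 and 31.6 CPM to 254 and 394 CPM (log2 3.28, SE 0.49), and was the member of the list that kept its call. NFKB1, the p105 and p50 subunit, was at 58.2 and 56.9 CPM before and 102 and 223 after treatment (log2 1.49, SE 0.24). The second treated library was far above the first, while the untreated ones were alike, and without that library the log2 value was 0.82 and the call was lost.

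NFKBIA, the inhibitor that holds NF-kB in the cytoplasm, rose from 647 and 417 to 1049 and 1057 CPM (log2 0.99, SE 0.26), and TNIP1, TRAF2 and RELB had log2 fold changes of 0.89, 0.88 and 1.12. NFKBIZ, an atypical coactivator, fell by 0.77 on the log2 scale (SE 0.18). TNFAIP3, which encodes the deubiquitinase A20, had a log2 fold change of 1.01 (SE 0.36) and did not pass.

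The falling genes included many immediate-early transcription factors, genes that answer serum and growth factors within minutes. Of 20 tested, 10 fell (against 1.22% of all tested genes), the other 10 did not pass, and the median log2 fold change was -0.98. EGR1 (chr5:138465479-138469303, plus strand), the zinc finger factor of the serum response, had 2953 and 5682 CPM at 0 h and 753 and 314 at 2 h. Both treated libraries were far below both untreated ones, the untreated ones differed from each other as well, and the log2 fold change was -3.02 (SE 0.30, adjusted p = 2.98e-06, edgeR), an 8.09-fold fall. Without replicate 1 at 2 h the log2 value was -3.78.

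EGR2 was at 88.7 and 371 CPM at 0 h and 22.9 and 12.1 at 2 h (log2 -3.71, SE 0.44). EGR4 fell from 4.85 and 42.7 CPM to 1.54 and 0.954 CPM (log2 -4.21, SE 0.78). In both genes the second untreated library was several times the first. Without replicate 2 at 0 h the log2 fold changes were -2.33 for EGR2 and -1.93 for EGR4, and the call of EGR4 was lost there and without replicate 2 at 2 h. With the first untreated library left out instead they were -4.43 and -5.10.

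The AP-1 genes FOS, FOSB and ATF3 also fell. FOS went from 253 and 518 CPM to 96.8 and 52.8 CPM (log2 -2.36, SE 0.32), FOSB from 21.3 and 51.3 to 8.01 and 4.25 CPM (log2 -2.55, SE 0.35), and ATF3 from 233 and 536 to 114 and 81.9 CPM (log2 -1.97, SE 0.26). In each of the 3 genes both treated libraries were below both untreated ones, and the second untreated library was the highest. Without it the log2 fold changes were -1.76 for FOS, -1.78 for FOSB and -1.25 for ATF3. JUN fell by 0.97 on the log2 scale (SE 0.18), and NR4A2, IER2 and SRF by 1.42, 0.99 and 1.42. MYC, at 1023 and 1138 CPM against 800.3 and 634, did not pass (adjusted p = 0.0647, edgeR).

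In 18 of the 20 genes both treated libraries were below both untreated ones, against 23.8% of all tested genes. In 18 the second untreated library was above the first, against 48.5% of all tested genes. EGR1, EGR2, FOS, FOSB and ATF3 kept their calls under every alternative, and the other 5 lost theirs under at least 1. Without replicate 2 at 0 h 5 of the 10 kept their calls, and 6 did so without replicate 2 at 2 h.

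**Figure D3:**
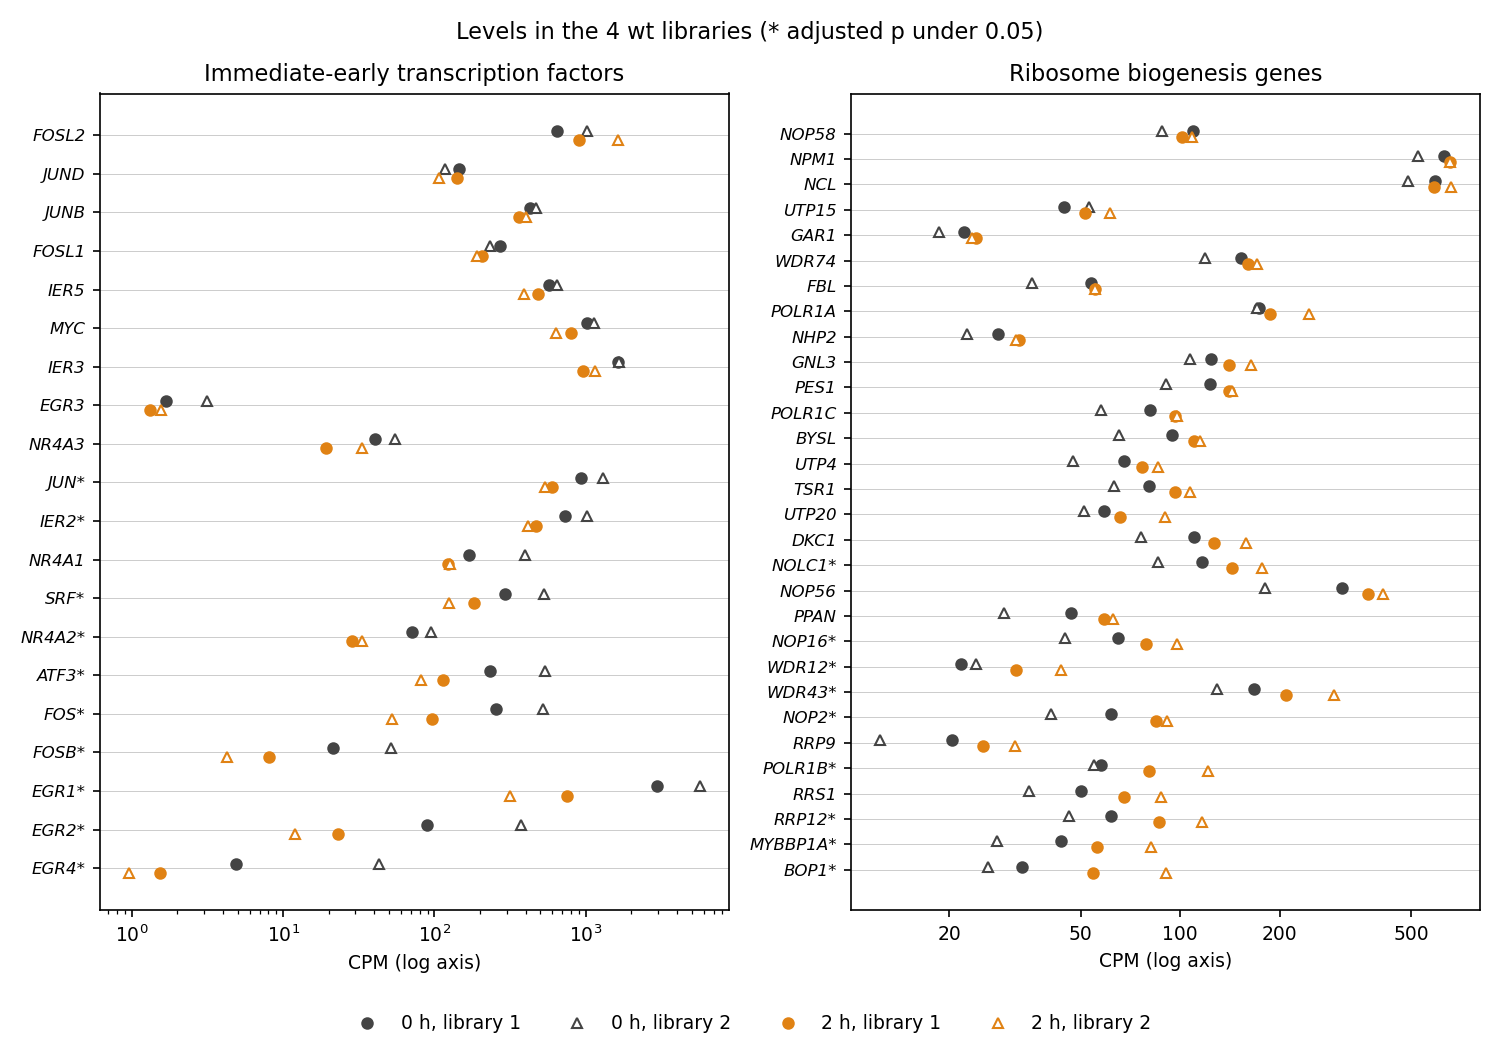
CPM on a log axis in the 4 wt libraries for 20 immediate-early transcription factors (left) and 30 ribosome biogenesis genes (right), ethanol in grey and 2 h of dexamethasone in orange, library 1 as filled circles and library 2 as open triangles, with an asterisk at genes past the threshold. On the left the orange points lie to the left of the grey ones in 18 genes, and on the right they lie to the right of them in 27. Over all tested genes the 2 h libraries lay wholly below those at 0 h in 23.8% and wholly above in 24.7%.

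EGR1 and SRF themselves are bound by SRF, the serum response factor, at a motif called the CArG box, so the promoter windows were read for it, a choice made after the falls were seen. The box was in 11 of the 147 windows of falling genes (7.48%), in 5 of the 574 of rising genes (0.871%) and in 1.08% of those of tested genes. The falling genes that held it were SRF, RND3, GBP1, EGR1, PRKAB2, RCAN1, ACTC1, TPM4, ZNF548, DNM3OS and LINC00973. EGR1, SRF and ZNF548 held 2 copies. Stretches of 80 bases from 4 of them follow, with the boxes in capitals, 5′ to 3′ on the strand of the gene, from RefSeq on GRCh38.p14. They are chr5:138465349-138465428 (plus strand) for EGR1, chr6:43171189-43171268 (plus strand) for SRF, chr15:34795620-34795699 (minus strand) for ACTC1 and chr19:16067328-16067407 (plus strand) for TPM4.
EGR1: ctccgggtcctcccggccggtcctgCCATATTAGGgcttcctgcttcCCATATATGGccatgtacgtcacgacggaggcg
SRF: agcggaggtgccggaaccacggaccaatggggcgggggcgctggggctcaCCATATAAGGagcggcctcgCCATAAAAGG
ACTC1: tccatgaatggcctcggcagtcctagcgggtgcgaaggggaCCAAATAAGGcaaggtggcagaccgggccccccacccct
TPM4: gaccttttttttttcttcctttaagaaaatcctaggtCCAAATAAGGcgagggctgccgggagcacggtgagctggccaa
The boxes of EGR1 end 96 and 74 bases before the start, and the second box of SRF ends at its last base before the start. Only 147 of the 288 falling genes had a window, and the rest are not described by these shares. In the same windows the AP-1 letters (TGACTCA or TGAGTCA) were in 6.80% of falling, 3.48% of rising and 3.47% of tested genes, and the TATA letters (TATAAA) in 18.4%, 5.23% and 6.57%, on either strand.

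Of 24 tested genes of SRF and the actin cytoskeleton, many of them known SRF targets, 5 fell (20.8%) and the others did not pass, with a median of -0.42. TAGLN, a smooth muscle actin-binding protein, went from 500.3 and 921 CPM to 219.8 and 128 CPM (log2 -2.03, SE 0.41, adjusted p = 0.005, edgeR). LIMA1, CNN1 and TPM4, which also bind actin, fell by 1.20, 1.29 and 0.83 on the log2 scale, and SRF itself was the fifth. VCL, which anchors actin at focal adhesions, was above its untreated level without passing (log2 0.79, SE 0.25). None of the 5 calls held when replicate 2 at 0 h was left out, and none when replicate 2 at 2 h was (edgeR).

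YAP and TEAD targets were split, with 2 rising and 2 falling of 22 (9.09% each, against 3.39% and 1.22% of all tested genes). The matricellular gene CCN2 fell from 2967 and 6676 CPM to 2026 and 1937 CPM (log2 -1.28, SE 0.27), and CCN1 from 5108 and 8008 to 3804 and 3741 (log2 -0.80, SE 0.18). WWC1, a Hippo pathway scaffold, and F3, tissue factor, rose by log2 fold changes of 1.00 and 1.24. ANKRD1, a standard YAP readout, overlapped between the groups (log2 -0.27, SE 0.20). These 4 calls were lost when the second library of either time was left out, with CCN2 at -0.58 without that of 0 h and WWC1 at 0.41 without that of 2 h.

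Of 52 tested keratin and keratin-associated genes, 10 fell (19.2%), each of them on chromosome 17, and 1 rose (1.92%). Over all tested genes 1.22% fell and 3.39% rose. The family was looked at because KRTAP2-3 was among the falling genes of smallest p. KRTAP2-3 went from 107 and 140.3 CPM to 34.8 and 24.5 CPM (log2 -2.06, SE 0.21, adjusted p = 5.46e-06, edgeR), and KRT17, a keratin of stressed epithelium, from 732 and 1555 to 424 and 392 CPM (log2 -1.49, SE 0.27). The KRTAP2 genes and the KRT17 pseudogenes, which make up 8 of the 10, are near-identical copies, so the count of genes is uncertain. KRT8 and KRT18, the simple epithelial pair, had log2 fold changes of 0.38 (SE 0.17) and 0.38 (SE 0.19) and did not pass. KRT6A rose from a low level, 0.202 and 0.462 CPM, to 1.69 and 2.60 CPM (log2 2.67, SE 0.58). Without replicate 2 at 0 h KRT17 was at -0.84 and KRT6A at 3.33, and both calls were lost.

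Other falling genes of small p-value included TUFT1 (tuftelin, first found in enamel), at 332 and 461 CPM before and 163 and 116 after treatment (log2 -1.51, SE 0.22). MAP3K7CL had nearly equal replicates, 85.1 and 85.5 CPM at 0 h and 35.5 and 34.2 at 2 h (log2 -1.29, SE 0.18). The membrane protein gene TM4SF1, the sorting nexin SNX18 and RFPL4A, which has a near-identical neighbour, fell by 1.00, 1.12 and 1.14 on the log2 scale.

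Matrix and bone genes changed singly. Of 22 tested collagens and bone matrix genes, 1 rose (4.55%, against 3.39% of all tested genes) and 2 fell (9.09%, against 1.22%). ALPL, the alkaline phosphatase of mineralising bone, rose from 14.2 and 15.4 to 39.5 and 28.9 CPM (log2 1.21, SE 0.22), while RUNX2, the osteoblast transcription factor, fell from 137 and 158 to 103 and 51.5 CPM (log2 -0.93, SE 0.20) and COL3A1 fell by 0.97 on the log2 scale. COL1A1 did not pass (log2 0.40, SE 0.20). TNFRSF11B, which encodes osteoprotegerin, the decoy receptor that restrains bone resorption, fell from 39.7 and 119 to 18.4 and 8.85 CPM (log2 -2.53, SE 0.46). With RUNX2 it made 2 falls among 12 osteosarcoma and mesenchymal markers (16.7%). TNFRSF11B ranged from -3.16 without replicate 1 at 2 h to -1.53 without replicate 2 at 0 h, where its call was lost. RUNX2 ranged over the alternatives from -1.51, without replicate 1 at 2 h, to -0.51, and lost its call in 4 of them. COL3A1 lost its call in 1 alternative.

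Of 20 genes of the plasminogen system and metalloproteases, ADAMTS7 (log2 2.34, a gene with near-identical copies) and ADAMTS9 rose, and ADAMTS1, ADAMTS5 and MMP2 fell by 1.44, 1.01 and 0.93 on the log2 scale. ADAMTS9 went from 2.83 and 3.62 CPM to 5.73 and 22.7 CPM (log2 2.13, SE 0.45). Its rise rested on the second treated library: without it the log2 value was 0.83 and the call was lost, and without the first it was 2.82. Among 28 TGF-beta and BMP feedback genes, the activin antagonist FST and the matrix protein TGFBI fell, by 1.22 (SE 0.19) and 1.34 (SE 0.26). They made up 7.14% of that list, and 1.22% of all tested genes fell.

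Of 30 tested ribosome biogenesis genes, 9 rose (30.0%) and the other 21 did not pass, all 30 had a positive log2 fold change and the median was 0.50. BOP1, of the PeBoW complex that processes ribosomal RNA, rose from 33.2 and 26.2 to 54.6 and 90.4 CPM (log2 1.28, SE 0.20, adjusted p = 0.000484, edgeR). MYBBP1A went from 43.5 and 27.9 to 55.8 and 81.3 CPM (log2 0.94, SE 0.21), and POLR1B, a subunit of RNA polymerase I, from 57.6 and 54.8 to 80.2 and 122 CPM (log2 0.84, SE 0.19). In 28 of the 30 genes library 1 was the higher at 0 h, and in 28 library 2 was the higher at 2 h, against 51.5% and 49.1% of all tested genes. BOP1 was the member that kept its call, and 1 of the 9 calls held without replicate 2 at either time.

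Growth and survival genes gave a few further risers. Of 22 cell cycle and apoptosis regulators 4 rose (18.2%, against 3.39% of all tested genes). They were CCND3 (cyclin D3, log2 1.60, SE 0.23), BCL2L1 (which encodes the survival protein BCL-xL, log2 1.16), GADD45B (log2 0.96) and CCND1 (cyclin D1, log2 0.67). The EGF receptor ligands AREG and HBEGF rose by log2 fold changes of 1.89 (SE 0.49) and 1.14 (SE 0.29), 2 of 6 tested (33.3%). IL6ST, the shared receptor chain of the IL-6 family, and the kinase PIM3 rose by 0.91 and 0.96, 2 of 20 JAK-STAT genes (10.0%). Of 22 mRNA decay factors 4 rose (18.2%), among them ZFP36L2 (log2 1.52) and ZFP36 (log2 0.94), which mark inflammatory mRNAs for decay. In these lists CCND3 and IL6ST kept their calls, and every other call was lost in at least 1 alternative.

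The remaining lists held at most 2 calls each, so their shares rest on 1 or 2 genes. Risers numbered 2 of 21 among GR, its chaperones and coregulators (9.52%, FKBP5 and FKBP4) and 2 of 16 heat shock genes (12.5%, CRYAB and HSF1). They were 2 of 19 ATF4 and unfolded protein genes (10.5%, TRIB3 and SLC7A5) and 2 of 23 cholesterol and fatty acid genes (8.70%, NSDHL among them). Of 16 MAPK feedback genes 1 rose (6.25%, DUSP7). Each share compares with 3.39% of all tested genes. KIF23 fell, 1 of 20 mitosis genes (5.00%, against 1.22% of all tested genes). In a sample of 24 KRAB zinc finger genes 0 were called by edgeR and 0 by DESeq2, with 4 at an unadjusted p under 0.05, and among 8 tested markers of other cell types 0 were called by either tool, with 2 at that p.

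**Figure D4:**
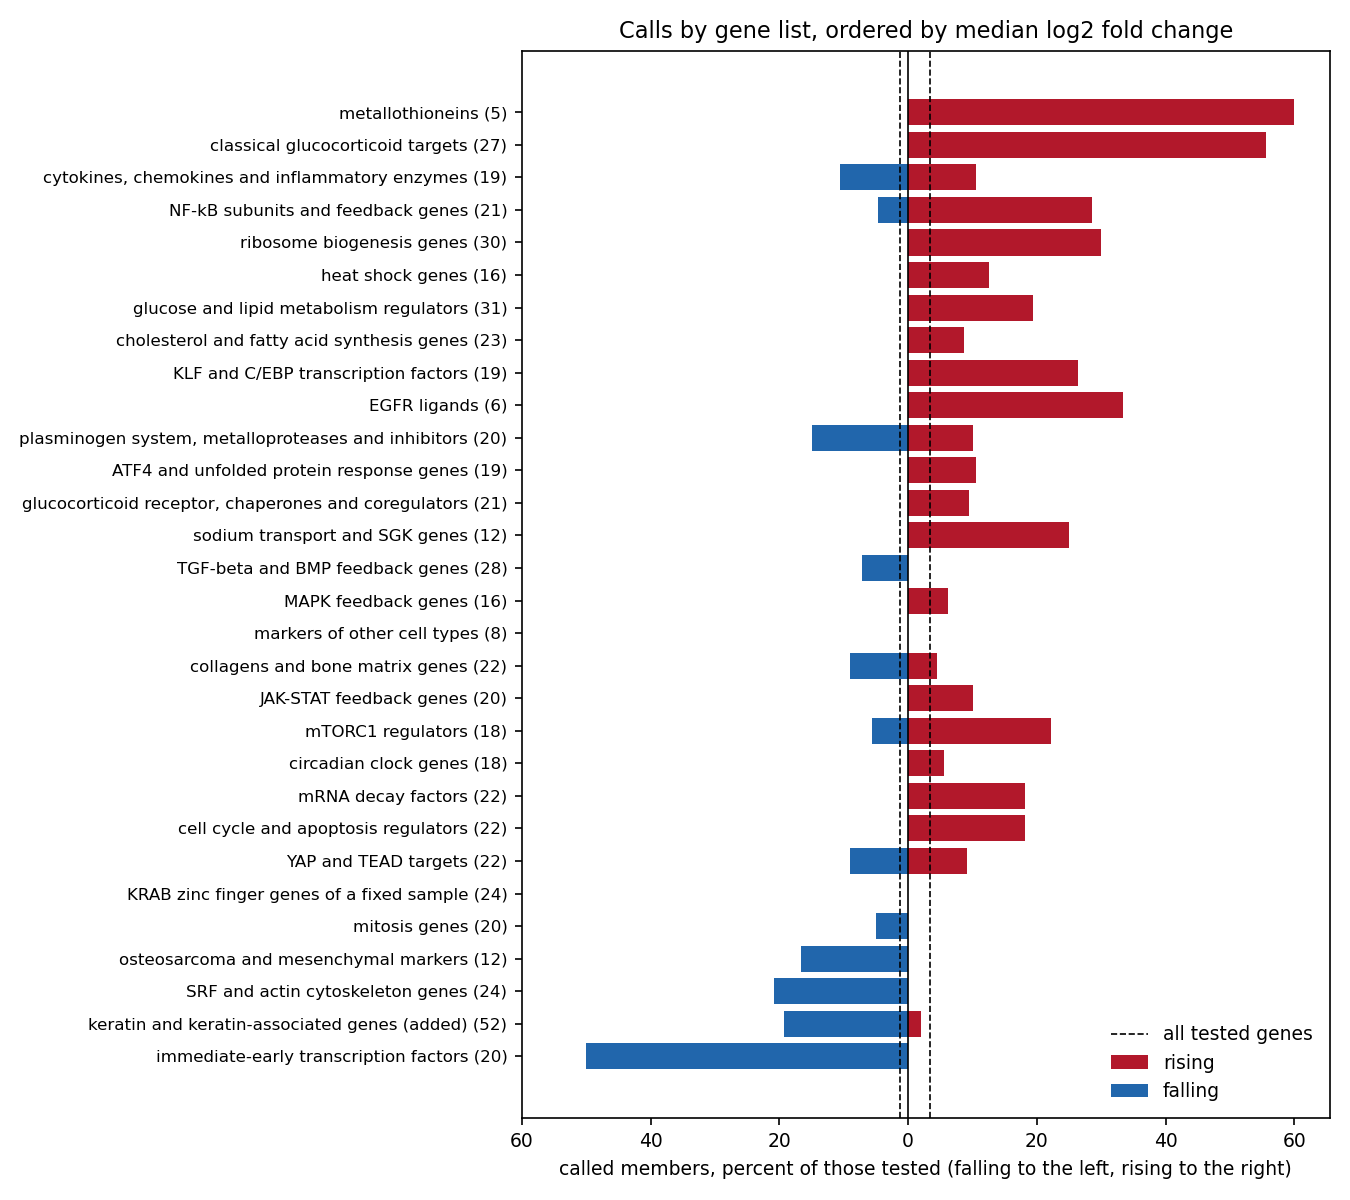
Share of the tested members of each list (in percent, number tested in brackets) that rose (red, right) or fell (blue, left), ordered by median log2 fold change, with dashed lines at the shares of all tested genes, 3.39% and 1.22%. Metallothioneins and classical targets stand at the rising end and immediate-early factors at the falling end.

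Of the 288 falling genes, 168 (58.3%) were protein coding, 77 (26.7%) lncRNAs and 33 (11.5%) pseudogenes, against 62.1%, 22.4% and 10.2% of all tested genes. Of the 801 rising genes 714 (89.1%) were protein coding and 67 (8.36%) lncRNAs. Genes that overlap another on the opposite strand made up 49.4% of rising, 51.7% of falling and 53.7% of tested genes, and for these the assignment of reads is uncertain, since the table's title alone says that counting used strand.

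The lncRNA MYOSLID, first described in smooth muscle, rose from 31.6 and 38.5 to 95.8 and 86.0 CPM (log2 1.38, SE 0.13, adjusted p = 2.23e-06, edgeR), and TPRG1-AS1 from 2.76 and 1.62 to 11.6 and 9.63 CPM. Falling lncRNAs included SFTA1P, from 83.3 and 62.1 to 32.6 and 29.7 CPM (log2 -1.22, SE 0.19), LINC02577 (log2 -1.66, SE 0.31) and LINC00973, which went from 105 and 96.1 to 54.3 and 46.7 CPM. LINC02577 was at -1.05 without replicate 2 at 0 h, and its call was lost. LINC01346 was at 0.404 and 1.85 CPM at 0 h and at 0 counts in both 2 h libraries, at least 4.68-fold lower against a floor of 3 counts per library, a call lost in 4 alternatives, among them the leaving out of the second untreated library.

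The wt libraries at 1 h and 3 h place the 2 h changes in time, measured against the same 0 h libraries and so not independent of them. The 801 genes rising at 2 h had a median log2 fold change of 0.05 at 1 h, 0.95 at 2 h and 0.93 at 3 h. For the 288 falling genes the medians were -0.14, -1.06 and -1.24. The chosen genes had to be far from 0 at 2 h, and the 1 h and 3 h fold changes were not used to choose them. The 1 h and 3 h libraries did enter the shared estimate of the spread behind the calls.

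Single genes had different courses. FKBP5 went on from 2 h to 214 and 224 CPM at 3 h, PDK4 was already at 36.4 and 38.5 CPM at 1 h and stayed there, and PER1 came down to 232 and 265 CPM at 3 h. EGR1 was still at 3282 and 3214 CPM at 1 h, within its 0 h range, and at 209 and 229 CPM at 3 h. ATF3 was at 348 and 463 CPM at 1 h and 38.9 and 30.1 at 3 h. METTL7B, at 4.92 and 2.85 CPM at 0 h, was no higher at 1 h and stood at 31.5 and 27.9 CPM at 2 h.

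The same contrast was read in the SoF and Ctrl lines, which share no library with wt. Their 0 h libraries were not independent of the wt imbalance, as same-numbered 0 h libraries of the 3 lines deviated together (correlations across genes of 0.39 to 0.57). The 3 lines also shared 1 fit and its estimate of the spread, so the calls in SoF and Ctrl are not wholly separate from those in wt. Called genes at 2 h were 4.20% rising and 1.48% falling of all tested genes in SoF and 5.58% rising and 2.38% falling in Ctrl. Of the 801 genes rising in wt, 556 (69.4%) were called rising in SoF and 551 (68.8%) in Ctrl, 453 in both. The direction was the same as in wt in 799 of the 801 in SoF and 792 in Ctrl, where 47.7% and 49.1% of all tested genes had a rising direction. Of the 288 falling in wt, 159 (55.2%) were called falling in SoF and 187 (64.9%) in Ctrl, 144 in both, and the direction was the same in 284 and 282, against 52.3% and 50.9% of all tested genes.

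The rising genes had median log2 fold changes of 0.95 (wt), 0.95 (SoF) and 0.92 (Ctrl), and the falling genes of -1.06, -0.88 and -0.97. EGR1 fell from 4799 and 4605 CPM to 814 and 599.6 CPM in SoF and from 5294 and 5076 to 716 and 805 CPM in Ctrl, where the untreated libraries were closer to each other than in wt. SCNN1A rose from 0.885 and 0.602 CPM to 45.0 and 33.4 in SoF, and was at 24.4 and 22.5 CPM at 2 h in Ctrl. The log2 fold change of TSC22D3, 2.12 in wt cells, was 1.46 in the SoF line and 0.31 in the Ctrl line.

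The difference in the 2 h response was tested as an interaction over all genes. It passed in 0 genes (0.00%) for SoF against wt and in 0 genes (0.00%) for Ctrl against wt in edgeR's quasi-likelihood test, with 388 and 617 genes at an unadjusted p under 0.05, and DESeq2 also called 0 in both. A difference in response was therefore not detected with 2 libraries a group, which does not show that the lines respond alike. For TSC22D3 the log2 response in Ctrl minus that in wt was -1.81 (SE 0.48), which did not pass. NR3C1 RNA was at 469 and 715 CPM at 2 h in wt, 1947 and 1779 in SoF and 2234 and 2515 in Ctrl, and its part in these values was not tested. These are RNA levels and not protein. The authors picked the sorted fractions so that nuclear GR protein, seen by immunofluorescence, was similar in the 3 lines.

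**Figure D5:**
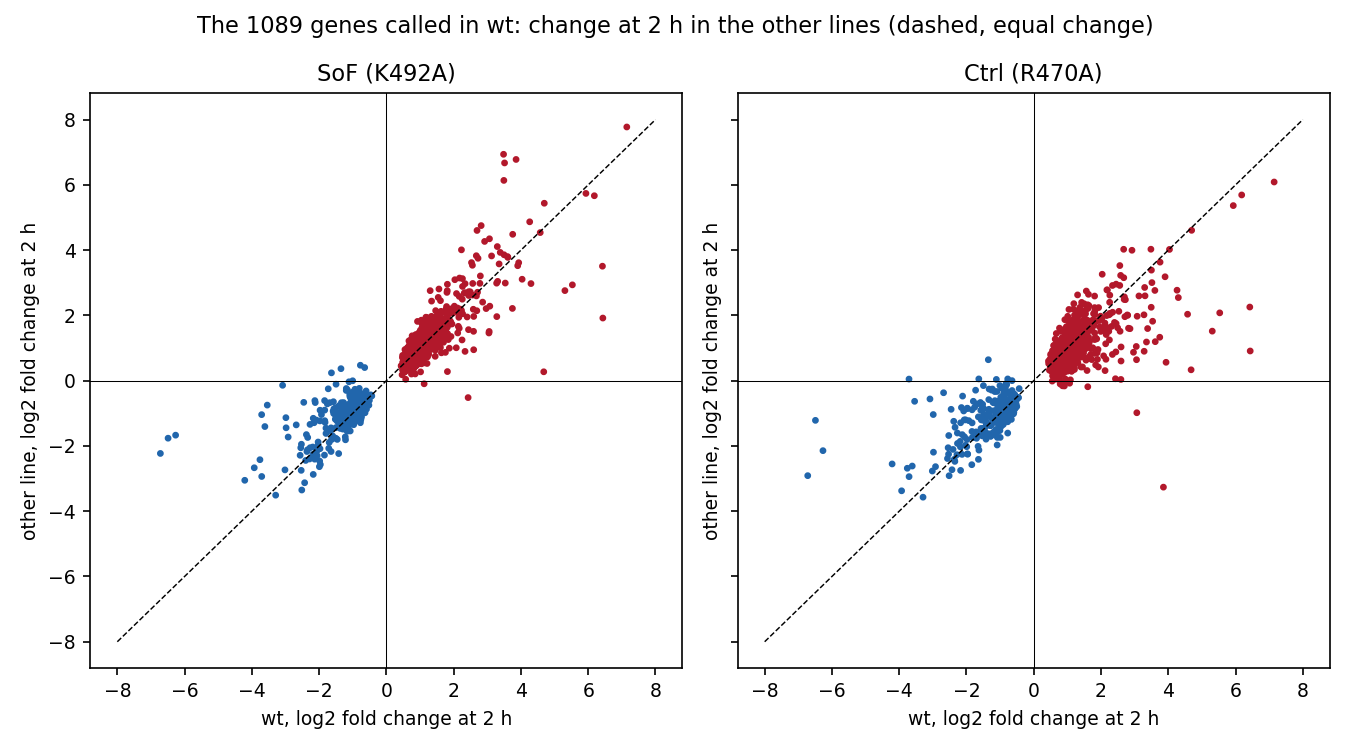
Log2 fold change at 2 h in SoF (left) or Ctrl (right) against that in wt for the 1089 genes called in wt, with genes rising in wt in red, genes falling in blue and equal change as a dashed line. Nearly all points lie in the quadrants of equal sign, 799 of 801 rising genes in SoF and 792 in Ctrl.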

How the data were processed

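4sU-seq was done on 24 libraries, 2 in each of 12 groups of line and time. The authors deposited exon counts per gene. They trimmed reads with Trim Galore 0.6.6, aligned them to hg38 with STAR 2.7.3a, collapsed molecular identifiers with UMI-tools 1.1.2, counted with featureCounts on GENCODE 39 and tested with DESeq2. The tool names and versions come from the methods and the submitters' processing notes. The title of the table calls the counts stranded, and no other source states the strand setting.

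From these counts, gene symbols were matched to GENCODE 44 by identifier without version (61369 of 61533 rows, 99.7%). Genes were kept by filterByExpr (minimum count 10, minimum total 15), leaving 23651 of 48707 with a count. TMM-scaled counts of all 12 groups were fitted in edgeR 4.0.16 (R 4.3.3, limma 3.58.1) with the quasi-likelihood test, and p-values were Benjamini-Hochberg adjusted over all tested genes with a threshold of 0.05. All groups share 1 estimate of the spread (common biological coefficient of variation 14.2%). Each SE was obtained from the log2 value and the F statistic (log2 size over root F). DESeq2 1.42.0, other scalings, other library sets, no filter, a replicate block and leaving out each library were the alternatives. The procedure was tested on simulated data. Tables and figures used Python 3.11.15.

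Genes named are the 14 rising and 12 falling of smallest p with non-overlapping libraries and at least 1 CPM in a group, 4 lncRNAs and the 4 largest changes in each direction, and up to 4 list members in each direction. Further genes are named as members of the lists, and the keratin family and the symbol families were chosen after values were seen. CCL3 and CCL3L3 are named outside these rules. The lists and genes were chosen with earlier results of these data known, so a list's count is not independent evidence. The 4 wt libraries had 12639036 to 15820806 counts. Counting intervals are exact, and they and the floor of 3 counts cover counting error only. Results for a few genes are not reported here.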

Additional observations from a re-analysis of the deposited data

Results flagged for a closer look

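KRT16, a keratin of stressed epithelium, is given here because both 2 h libraries were below both 0 h libraries in wt and above them in Ctrl. In wt it was at 3.51 and 3.62 CPM at 0 h and 1.47 and 1.30 CPM at 2 h (log2 fold change -1.35, SE 0.32), a call that was lost in 5 alternatives: the 8 or the 4 wt libraries alone, and without replicate 2 at 0 h or either library at 2 h. In Ctrl it was at 4.29 and 2.83 CPM at 0 h and 5.49 and 5.82 CPM at 2 h (log2 fold change 0.64, SE 0.28), which did not pass, and in SoF the log2 fold change was 0.37 (SE 0.33), which did not pass either. The response in Ctrl exceeded that in wt by 1.99 on the log2 scale (SE 0.43), and this difference did not pass adjustment over all genes in edgeR's quasi-likelihood test.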

How the results depend on the processing

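Against 1089 called genes (801 rising, 288 falling), the count was 1706 (682 falling) without the low-count filter, 668 (478 and 190) with the 8 wt libraries alone, 468 (341 and 127) with the 4 wt libraries alone and 523 (365 and 158) when calls also had to reach 1 on the log2 scale. Leaving out each wt library in turn gave 146 to 1159 called, 124 to 840 rising and 22 to 444 falling, with the lone library assumed to vary like the other groups. DESeq2 called 1328, DESeq2 size factors in edgeR 1052 and library totals 953. The difference of response was called in 1 gene for SoF and 22 for Ctrl without the filter, and in 0 to 0 genes for both when any library was left out. A replicate block gave 1668 calls (524 falling), but nothing in the labels ties a number to a shared culture or day. Deviations of same-numbered libraries correlated at 0.08 between wt 0 h and wt 2 h, at 0.39 to 0.57 among the 0 h groups of the 3 lines, and at -0.22 to 0.57 over all 66 pairs of groups, 21 of them over 0.1, so the numbers were not taken to pair the samples of this contrast. No named gene or list member that was called changed direction. Of 94 called list members, 63 kept their calls with the 4 wt libraries alone, 30 when the second 0 h library was left out and 20 when the second 2 h library was. The cause of these differences was not tested. No limit of detection was measured.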

Other observations

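Grouped by the letters of their symbols, 94 families had at least 20 tested genes, a grouping made after the calls were known and given as counts. Symbols that begin with SLC, most of them solute carriers, which move nutrients and ions across membranes, had 29 rising (9.83%, against 3.39% of all tested genes) and 3 falling among 295 tested. The 29 include the antisense RNA SLC25A25-AS1. The carnitine transporter SLC22A5 went from 34.6 and 37.5 CPM at 0 h to 79.0 and 107 CPM at 2 h (log2 1.37, SE 0.21), and the thiamine transporter SLC19A2 from 29.9 and 37.4 CPM to 84.7 and 117 CPM (log2 1.58, SE 0.27). The insulin-responsive glucose transporter SLC2A4 rose from 5.93 and 3.31 CPM to 13.2 and 17.4 CPM (log2 1.72, SE 0.26), whereas its relative SLC2A12 fell from 32.4 and 50.4 CPM to 18.9 and 4.596 CPM (log2 -1.80, SE 0.39). In each of these genes the 2 h libraries did not overlap those at 0 h.

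Palmitoyltransferases (ZDHHC) had 4 rising of 25 tested (16.0%), of which ZDHHC8BP is a near-identical copy of ZDHHC8, and KCTD genes 3 of 24 (12.5%). Of 20 tested NR symbols 2 fell (against 1.22% of all tested genes), the nuclear receptor NR4A2 and the antisense RNA NR2F2-AS1, and the 3 falling MED symbols of 38 were pseudogenes of MED15, which are near-identical copies.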
